A study of Homo sapiens with 12 samples.

Results

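The module described here holds 33 genes of the endoplasmic reticulum (ER) chaperones and the unfolded protein response. Its members were taken by gene name from the 58735 genes of the deposited tables, with no filter on their values, and all 33 were found. The list itself was chosen with earlier results of these data known. RNA was measured in Huh7 and HLF, a pair of established human hepatocellular carcinoma lines without engineered alleles in the labels, with 2 biological replicates in each of 6 groups, or 12 libraries. The flat cultures (Huh7 2D, HLF 2D) were harvested on day 2 at about 90% confluence. For Inject-Embed, 4000 Huh7 or 2000 HLF cells per well were injected into the centre of a Matrigel bed, a basement membrane extract. For Mix-Embed, 20000 Huh7 or 10000 HLF cells per well were stirred into Matrigel and layered on a set gel. Both 3D cultures were harvested between day 6 and day 8, and all groups had the same serum-supplemented DMEM with antibiotics. Seeding number, days in culture and the form of culture changed together and cannot be told apart. Each line stands for itself, so a comparison of Huh7 with HLF is a comparison of those lines and not of classes of tumour.

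Proteins bound for secretion or the cell surface enter the ER through the Sec61 channel, where chaperones, disulfide isomerases and lectins fold them. When unfolded protein gathers there, the sensors IRE1 (ERN1), PERK (EIF2AK3) and ATF6 start the unfolded protein response. IRE1 splices the XBP1 message, PERK slows translation, and ATF6 is cut to release a transcription factor. XBP1 and ATF6 then raise chaperones and the machinery of ER-associated degradation (ERAD), which sends misfolded proteins to the proteasome. Hepatocytes secrete most plasma proteins and are rich in this machinery. RNA levels do not show sensor activation, and counts per gene do not separate spliced from unspliced XBP1.

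ATF6 and XBP1 are known to act through the ER stress response element, written ERSE (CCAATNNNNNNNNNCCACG) or ERSE-II (ATTGG, 1 base of any kind, CCACG). These letters were searched on both strands of RefSeq promoters (assembly GRCh38.p14, 250 bases before to 50 after each gene's start). An entry was found for 30 of the 33 members; DERL1, DERL3 and PDIA3 had none. ERSE stood in 6 of these 30 promoters and in 22 of 27305 promoters of all genes (0.0806%), and ERSE-II in 3 of 30 and in 15 of 27305 (0.0549%). Either motif was present in 9 of the 30 members (30.0%) and in 37 of all promoters (0.136%), which include these 9. The list was chosen for the response that works through this element, so the shares describe the list and not these data. The 11 matches of these 9 members are shown because the counts of members that fell or rose are read by them further on. Each run of 29 bases reads 5′ to 3′ on the strand of the gene, with the fixed letters of ERSE, or all 11 letters of ERSE-II, in capitals, on either strand.
CALR ERSE, chr19:12938379-12938407, plus strand: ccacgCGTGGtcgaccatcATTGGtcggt
CANX ERSE, chr5:179698773-179698801, plus strand: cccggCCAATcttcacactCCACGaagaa
CRELD2 ERSE, chr22:49918549-49918577, plus strand: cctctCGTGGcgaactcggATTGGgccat
HERPUD1 ERSE-II, chr16:56932016-56932044, plus strand: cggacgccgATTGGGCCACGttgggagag
HSP90B1 ERSE, chr12:103930211-103930239, plus strand: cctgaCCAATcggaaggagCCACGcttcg
HSP90B1 ERSE, chr12:103930316-103930344, plus strand: gggtgCGTGGtgcggcgcgATTGGtgggt
HSPA5 ERSE, chr9:125241386-125241414, minus strand: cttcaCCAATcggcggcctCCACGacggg
HYOU1 ERSE-II, chr11:119057371-119057399, minus strand: gccccgtgaCGTGGTCCAATcccaggccg
HYOU1 ERSE-II, chr11:119057265-119057293, minus strand: ggcctgggaCGTGGTCCAATgagtacgcg
SDF2L1 ERSE-II, chr22:21642105-21642133, plus strand: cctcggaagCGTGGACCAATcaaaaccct
XBP1 ERSE, chr22:28800598-28800626, minus strand: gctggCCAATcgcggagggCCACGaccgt
All 11 windows lie before the RefSeq start of their gene. In the GENCODE 44 annotation the CANX window and both HSP90B1 windows fall in exons of other transcripts of the same gene, and the HSP90B1 window starting at 103930211 also overlaps an exon of TTC41P. The XBP1-binding core TGACGTGG was found in 1 of 30 member promoters, that of HYOU1, where it overlaps the first ERSE-II match, and in 217 of 27305 promoters (0.795%). A match of letters is a description of the promoter and was not tested for binding.

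The libraries held 12325877 to 16041906 counts each. Levels are given as CPM, counts scaled to a library of 1000000 with totals adjusted by the trimmed mean of M-values (TMM), and fold changes as log2 ± SE from edgeR's quasi-likelihood test over 19342 genes with Benjamini-Hochberg adjustment. "Rose", "fell" and "differed" are used for an adjusted p under 0.05. All 33 members passed the filter on low counts, DERL3 only through its few counts in Huh7. Defining hepatocyte markers were high in Huh7 and nearly absent from HLF: the summed CPM of 8 hepatocyte markers was 34800 to 46600 in the Huh7 libraries and 1.32 to 13.7 in HLF, with APOB, APOA2 and TTR at 0 in every HLF group, and that of 6 mesenchymal markers 131 to 206 in Huh7 and 2330 to 3240 in HLF. Of the mesenchymal markers VIM, CD44, TNC, MSN and CDH2 were higher in HLF, and ZEB1 went the other way. Its means in 2D, Inject-Embed and Mix-Embed were 26.3, 21.9 and 18.9 CPM in Huh7 and 16.7, 15.8 and 13.5 in HLF. Among the 5 endothelial markers the sum was at most 13.3 CPM in any library, and among the 3 erythroid markers at most 0.063. The sums were 181 to 325 CPM in Huh7 and 154 to 194 in HLF for 7 fibroblast or stellate markers, 237 to 338 and 3.22 to 8.75 for 6 leukocyte markers, with PTPRC and CD3E at 0 in every HLF group, and 429 to 477 and 23 to 51.2 for 4 cholangiocyte markers, with KRT7 at 0 in Huh7. The fibroblast or stellate sums rested on different genes in each line. In 2D, mean COL1A2 and PDGFRA were 133 and 182 CPM in Huh7 and 1.41 and 0.593 in HLF. COL1A1 and PDGFRB were 1.57 and 5.13 in Huh7 and 91.1 and 96.3 in HLF. DCN, LUM and ACTA2 had group means of at most 4.89 CPM. LYZ (326 CPM) and SOX9 (354 CPM) made up most of the Huh7 2D leukocyte and cholangiocyte sums. The share of mitochondrial ribosomal RNA was higher in 3D (0.477% to 0.543% in Huh7, 0.468% to 0.597% in HLF) than in 2D (0.306% to 0.315% and 0.293% to 0.3%), and its part in the results below was not tested.

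The module took a larger share of the counts in Huh7 than in HLF, and a smaller share of those of Huh7 in 3D. The 33 members summed to 11817 and 11878 CPM in the Huh7 2D libraries, 10286 and 10144 in Huh7 Inject-Embed, and 10285 and 10208 in Huh7 Mix-Embed. In HLF the sums were 8426 and 8282 CPM in 2D, 8030.0 and 7964 in Inject-Embed, and 8063 and 8012 in Mix-Embed. On this scale both 3D groups of each line lay below both 2D libraries. As a plain percent of all counts, without TMM, the Huh7 groups still did not overlap (1.11% and 1.10% in 2D, 0.947% to 0.982% in 3D). In HLF, Mix-Embed (0.873% and 0.868%) overlapped 2D (0.874% and 0.861%), while Inject-Embed (0.860% and 0.852%) lay just below it. In bulk RNA a smaller share of expressing cells and less RNA per cell cannot be told apart.

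Per length of transcript, a handful of chaperones dominated. On the FPKM scale, CALR, a calcium-binding lectin chaperone, was the highest member in every group, at 555 ± 36 (SD, n = 2) in Huh7 2D and 389 ± 14 in HLF 2D. HSP90B1 (GRP94), HSPA5 (BiP, the Hsp70 of the ER) and P4HB (protein disulfide isomerase) followed in Huh7 2D at 309.9 ± 8.2, 302 ± 0.4 and 264 ± 9.8 FPKM. HSP90B1 and HSPA5 did not differ beyond their spread in that order. XBP1 came next at 225 ± 0.12 FPKM, a level near that of the isomerase PDIA4 (220.2 ± 6.4). In HLF 2D the order after CALR was HSP90B1 (304 ± 6), HSPA5 (249 ± 9.2), the membrane lectin CANX (206 ± 2.4) and P4HB (138 ± 2.4). Exactly 8 members exceeded 100 FPKM in each of the 6 groups. At the low end stood DERL3 (0.304 ± 0.011 FPKM in Huh7 2D), TXNDC5 (1.54 ± 0.085) and the sensors ERN1 (2.12 ± 0.27), ATF6 (3.92 ± 0.034) and EIF2AK3 (6.09 ± 0.12).

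Huh7 was first compared with HLF in flat culture. Huh7 had more of the transcription factors XBP1 and CREB3L2, of several isomerases and of HSPA5 helpers, and HLF had more of the sensor ATF6. Of the 32 members with counts in both lines, 20 were higher and 7 lower in Huh7, where 38.1% and 39.2% of all tested genes were called in those directions. DERL3, which passed the filter only through Huh7, is the other call of the 21 higher among all 33. The median log2 fold change was 0.43, unchanged with DERL3 set at its bound, beside -0.02 over all tested genes. With library totals as the only scaling, the all-gene median was -0.18 and the counts among all 33 were 18 and 9.

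XBP1 was the member with the largest fold outside DERL3. It stood at 729.5 and 733 CPM in Huh7 and 78.7 and 76.1 in HLF (3.24 ± 0.05, adjusted p = 8.05e-42). CREB3L2, a membrane-bound factor cut in the Golgi like ATF6, stood at 405 and 375 CPM against 56.6 and 59.9 (2.74 ± 0.06, adjusted p = 1.13e-36). For these 2 factors no Huh7 library came near an HLF one. ATF6 went the other way, with 32.9 and 33.5 CPM in Huh7 and 75 and 77.7 in HLF (-1.20 ± 0.07, adjusted p = 7.29e-19). EIF2AK3 was higher in Huh7 at 34.9 and 36.1 CPM against 20.9 and 21.3 (0.75 ± 0.11, adjusted p = 3.73e-08). ERN1 stood at 22.4 and 27.1 against 17.8 and 22.5 CPM, groups that overlap; its call (0.29 ± 0.12, adjusted p = 0.0306) ended with 6 of the 12 libraries left out one at a time and under 5 of the 9 other settings (adjusted p = 0.0589 to 0.448).

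Among the helpers of HSPA5, DNAJB9 (ERdj4) had 65.4 and 52.6 CPM in Huh7 and 12.1 and 13.5 in HLF (2.20 ± 0.12, adjusted p = 2.02e-21), and DNAJB11 (ERdj3) 94.7 and 103 against 48.8 and 49 (1.01 ± 0.07, adjusted p = 3.13e-17). HSPA5 itself differed less, at 1260.2 and 1269.9 against 963 and 912 CPM (0.43 ± 0.04, adjusted p = 7.33e-14). HYOU1 (GRP170), an exchange factor and holdase, was lower in Huh7 with 297 and 310.5 CPM against 395 and 407 (-0.40 ± 0.05, adjusted p = 3.9e-10), as was HSPA13 with 72.4 and 66.8 against 112 and 116 (-0.71 ± 0.06, adjusted p = 1.2e-13). Of the 8 genes of this role, 5 were higher in Huh7 and 2 lower. Within the isomerase family PDIA5 (87.8 and 86.6 against 20.6 and 20.7 CPM; 2.08 ± 0.08, adjusted p = 9.94e-26), P4HB (1459 and 1547 against 698 and 714; 1.09 ± 0.04) and PDIA4 (756 and 792 against 389 and 370.1; 1.03 ± 0.04) were higher in Huh7. PDIA6 (-0.70 ± 0.05) and TXNDC5 (6.93 and 7.54 against 12.8 and 14 CPM; -0.89 ± 0.18) were lower. PDIA5 shares 12% of its exon bases with SEC22A on the same strand, and TXNDC5 60.9% with the read-through gene BLOC1S5-TXNDC5, listed at 0 counts, so the level of TXNDC5 is uncertain.

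CALR was higher in Huh7, at 1536 and 1693 CPM against 1043 and 989.8 (0.67 ± 0.04, adjusted p = 3.98e-19). CANX, its membrane-anchored relative, had 1305 and 1218 CPM in Huh7 against 1227 and 1245 in HLF, groups that overlap (0.03 ± 0.04, adjusted p = 0.479). Its direction turned with the scaling: the log2 fold change was -0.13 with library totals alone (adjusted p = 0.00274) and with limma on either log2(FPKM) scale. HSP90B1 had 1585 and 1535 against 1395 and 1354 CPM (0.18 ± 0.04, adjusted p = 3.29e-05), a call that ended with library totals alone or either limma fit on FPKM (adjusted p = 0.51 to 0.545). In ERAD, EDEM1, a mannosidase-like factor that hands glycoproteins over for degradation, was higher in Huh7 (119 and 110.3 against 66.5 and 59.3 CPM; 0.86 ± 0.07, adjusted p = 7.32e-15), as were HERPUD1 (0.53 ± 0.07), SEL1L (0.46 ± 0.06) and DERL1 (0.43 ± 0.08). SYVN1 (HRD1), the ubiquitin ligase at the centre of this machinery, had 53.9 and 60.2 CPM in Huh7 and 55.9 and 58.1 in HLF and did not pass the test (0.00 ± 0.08, adjusted p = 0.993). The small Sec61 subunit SEC61B was higher in Huh7, with 58.5 and 72.6 CPM against 36.8 and 34.7 (0.87 ± 0.08, adjusted p = 1.45e-12).

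DERL3, a derlin of secretory cells, was listed at 0 counts in all 6 HLF libraries and had 37 counts in the Huh7 2D libraries together. Against a floor of 3 counts over the HLF 2D group it was at least 13.2-fold higher in Huh7. SMARCB1 covers 77.0% of its exon bases on the opposite strand, and its level is uncertain, since no label or header says whether counting used strand. The secreted stress proteins CRELD2 (36.3 and 36.9 against 39.2 and 40.0 CPM; -0.11 ± 0.09, adjusted p = 0.235) and MANF (47.4 and 54.4 against 48.3 and 45.9; 0.11 ± 0.09, adjusted p = 0.236), and SDF2L1, a partner of ERdj3 (69.6 and 83.5 against 67.5 and 73; 0.12 ± 0.08, adjusted p = 0.146), did not pass the test.

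The calls of DNAJC3 (0.30 ± 0.07), DERL2 (-0.23 ± 0.08) and SSR1 (-0.14 ± 0.05) completed the 28. The DNAJC3 call ended with library totals alone or either limma fit on FPKM (adjusted p = 0.0595 to 0.0894). Without Huh7 2D replicate 2, DERL2 (adjusted p = 0.0592) and SSR1 (0.221) were not called, nor was DERL2 without HLF 2D replicate 1 (0.162). The remaining calls, PDIA3 (0.50 ± 0.04) and ERP44 (0.76 ± 0.08), were higher in Huh7.

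**Figure D1:**
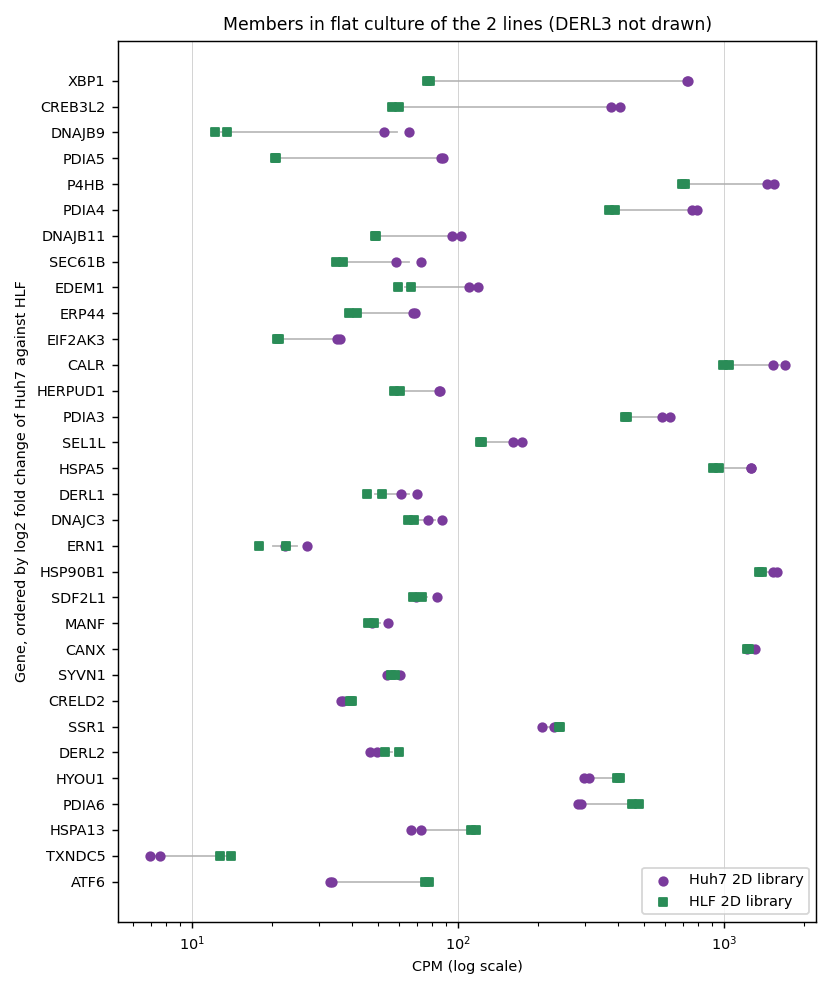
CPM of 32 members (log scale, x axis) in the 2D libraries of Huh7 (circles) and HLF (squares), ordered by the log2 fold change of Huh7 against HLF; each point is 1 library and a grey line joins the means. XBP1 (729.5 and 733 against 78.7 and 76.1) has the widest gap in favour of Huh7 and ATF6 (32.9 and 33.5 against 75 and 77.7) in favour of HLF.

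In Huh7, both 3D cultures were compared with the same 2D libraries, which the comparisons therefore share. In Inject-Embed and Mix-Embed respectively, 5 and 7 of the 8 Hsp70, Hsp90 and helper genes fell, both lectin chaperones in each, 4 of the 7 isomerases in each, 3 and 2 of the 5 sensors and factors, and 4 and 2 of the 7 ERAD genes. These falls had called log2 fold changes from -0.11 (CANX) to -0.85 (EDEM1), both in Inject-Embed. In Inject-Embed 18 of the 33 members fell and 2 rose, where 16.7% and 13.2% of all tested genes were called lower and higher. In Mix-Embed 18 fell and 0 rose, where 10.6% and 11.2% of all genes were called; edgeR's unadjusted p was under 0.05 for 1 higher member, and DESeq2 also called 0 higher. The members' medians were -0.20 and -0.22, beside -0.03 and 0.00 over all tested genes. The sum of the 8 hepatocyte markers was lower in Inject-Embed (34800 to 36300 CPM) than in 2D (44700 to 46600), with 43100 to 43700 in Mix-Embed. AFP made up most of that sum (means in 2D, Inject-Embed and Mix-Embed 25044, 19479 and 23242 CPM), and single markers went both ways: ALB (357, 1169 and 661 CPM), HNF4A (366, 498 and 550.2 CPM) and TTR (51.4, 59.8 and 80.5 CPM) were higher in 3D, while APOB (8026, 6433 and 5742 CPM) and SERPINA1 (5794, 4063 and 5490.1 CPM) were lower. TF and APOA2 were lower in Inject-Embed and higher in Mix-Embed, by their means. The part of these markers in the results was not tested.

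**Figure D2:**
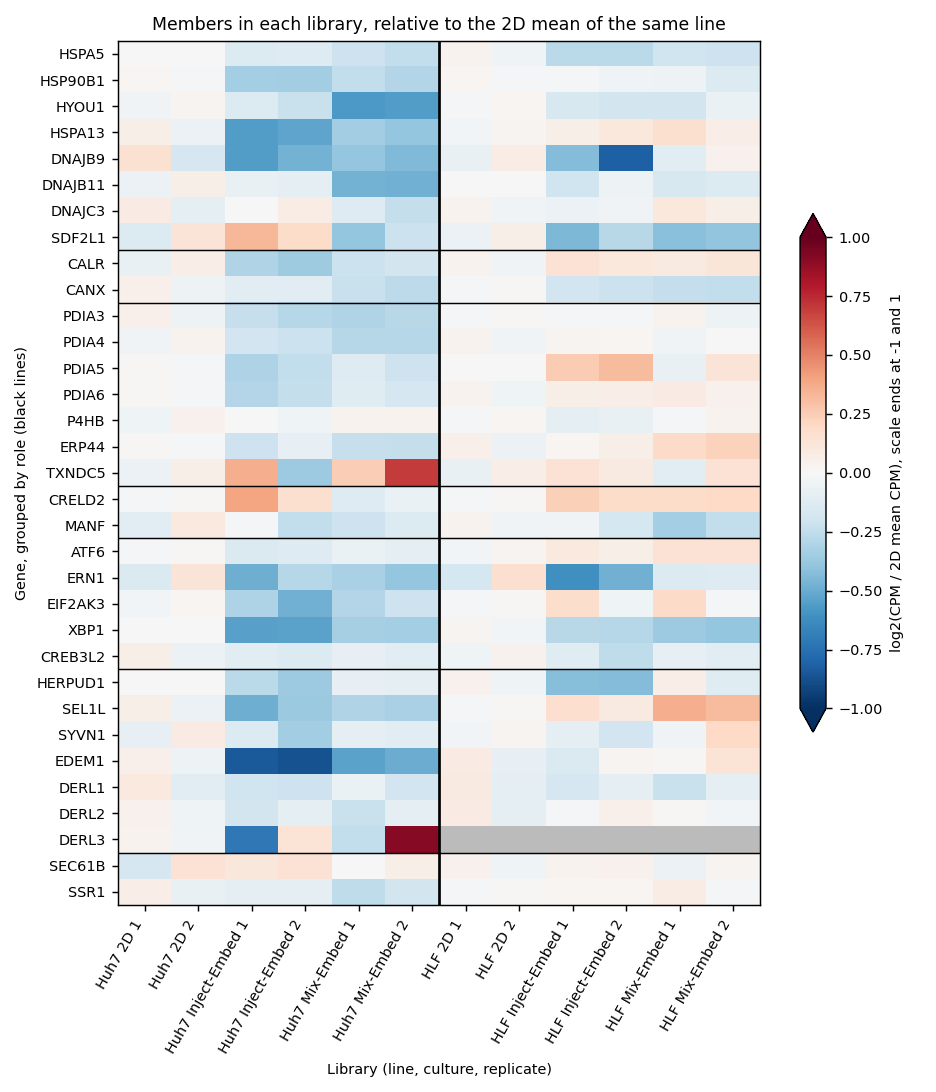
Log2 ratio of each library's CPM to the 2D mean of its own line for the 33 members (rows, grouped by role) in the 12 libraries (columns); blue is lower and red higher, on a scale that ends at -1 and 1, and grey marks DERL3 in HLF, with 0 counts. The Huh7 3D columns are mostly blue, while the HLF 3D columns mix pale blue and pale red, with XBP1 blue in both lines.

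EDEM1 had the largest fall in Inject-Embed, and in Mix-Embed it came after HYOU1. Its level was 119 and 110.3 CPM in Huh7 2D, 63.9 and 62.7 in Inject-Embed and 79 and 81 in Mix-Embed. The groups did not overlap, and Inject-Embed was lowest. The log2 fold change was -0.85 ± 0.07, adjusted p = 4.8e-13 in Inject-Embed and -0.52 ± 0.07, adjusted p = 1.69e-07 in Mix-Embed, and Inject-Embed was below Mix-Embed by the same test (-0.34 ± 0.07, adjusted p = 0.000586). SEL1L, the adaptor of the SYVN1 ligase, fell from 174 and 161 CPM in 2D to 119 and 129 in Inject-Embed and 136 and 134 in Mix-Embed (-0.43 ± 0.06, adjusted p = 7.7e-08 and -0.31 ± 0.06, adjusted p = 4.22e-05). HERPUD1, a membrane scaffold of the ligase, was at 85.5 and 84.7 CPM in 2D and 70.5 and 66.2 in Inject-Embed, a fall (-0.31 ± 0.07, adjusted p = 0.000544). In Mix-Embed it stood at 80.6 and 79.6 CPM and did not pass the test (-0.09 ± 0.07, adjusted p = 0.435). HERPUD1 was lower in Inject-Embed than in Mix-Embed (-0.23 ± 0.07, adjusted p = 0.018), though that call ended with 6 of the 12 libraries left out one at a time and under 4 of the 9 other settings (adjusted p = 0.0535 to 0.193).

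SYVN1 had 53.9 and 60.2 CPM in 2D, 51.8 and 44.7 in Inject-Embed and 53.5 and 53.1 in Mix-Embed. Its fall in Inject-Embed (-0.24 ± 0.09, adjusted p = 0.0291) ended with 7 of the 12 libraries left out one at a time and under 5 of the 9 other settings (adjusted p = 0.0555 to 0.395), and the value in Mix-Embed was -0.10 ± 0.08, adjusted p = 0.473. The derlins, which form a passage out of the ER, did not pass the test in either culture: DERL1 was at -0.20 ± 0.08 and -0.13 ± 0.08, and DERL2 at -0.14 ± 0.08 and -0.16 ± 0.08. DERL3 had 1.27 and 1.21 CPM in 2D, 0.757 and 1.36 in Inject-Embed and 1.04 and 2.33 in Mix-Embed, too few counts to show a difference of this size (-0.24 ± 0.57 and 0.43 ± 0.54).

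Among the sensors and factors, XBP1 fell in both cultures. It stood at 729.5 and 733 CPM in 2D, 502 and 505 in Inject-Embed and 581 and 577 in Mix-Embed, with replicates far closer than the groups. The log2 fold changes were -0.54 ± 0.04, adjusted p = 9.63e-14 and -0.34 ± 0.04, adjusted p = 4.9e-08, and Inject-Embed was below Mix-Embed (-0.20 ± 0.04, adjusted p = 0.000381). ERN1, whose product splices XBP1, had 22.4 and 27.1 CPM in 2D, 17.6 and 20.3 in Inject-Embed and 19.8 and 18.9 in Mix-Embed. It fell in both (-0.38 ± 0.13, adjusted p = 0.02 and -0.35 ± 0.13, adjusted p = 0.041), but the Inject-Embed call ended without Huh7 2D replicate 2 (adjusted p = 0.287) or Huh7 Inject-Embed replicate 1 (0.234), and with either limma fit on FPKM (adjusted p = 0.132 to 0.151). The Mix-Embed call of ERN1 ended without Huh7 2D replicate 2 (adjusted p = 0.4), Huh7 Mix-Embed replicate 1 (0.118) or Huh7 Mix-Embed replicate 2 (0.199), and with no filter on low counts, DESeq2 or either limma fit on FPKM (adjusted p = 0.057 to 0.167). EIF2AK3, at 34.9 and 36.1 CPM in 2D, 28.6 and 25.4 in Inject-Embed and 29 and 30.8 in Mix-Embed, fell in Inject-Embed (-0.39 ± 0.11, adjusted p = 0.00407), a call that ended without Huh7 Inject-Embed replicate 2 (adjusted p = 0.0909). In Mix-Embed EIF2AK3 did not pass (-0.25 ± 0.11, adjusted p = 0.0887). ATF6 (32.9 and 33.5 CPM in 2D, 30.0 and 30.3 in Inject-Embed and 31.7 and 31 in Mix-Embed) and CREB3L2 (405 and 375 CPM in 2D, 359.9 and 356 in Inject-Embed and 369 and 362 in Mix-Embed) did not pass in either, at -0.14 ± 0.08 and -0.08 ± 0.08, and -0.12 ± 0.05 and -0.09 ± 0.05.

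The abundant chaperones fell by smaller amounts. HSP90B1 went from 1585 and 1535 CPM in 2D to 1230.5 and 1227 in Inject-Embed and 1317 and 1272 in Mix-Embed (-0.34 ± 0.04, adjusted p = 7.52e-10 and -0.27 ± 0.04, adjusted p = 3.76e-07). HSPA5 went from 1260.2 and 1269.9 CPM in 2D to 1150.0 and 1159 in Inject-Embed and 1095 and 1067 in Mix-Embed (-0.13 ± 0.04, adjusted p = 0.00595 and -0.23 ± 0.04, adjusted p = 1.02e-05). No 3D library of either gene reached the 2D level. The Inject-Embed call of HSPA5 ended without Huh7 Inject-Embed replicate 1 (adjusted p = 0.0521), HLF Inject-Embed replicate 1 (0.055) or HLF Inject-Embed replicate 2 (0.0554), and with the compared groups alone (adjusted p = 0.1). CALR had 1536 and 1693 CPM in 2D, 1312 and 1264 in Inject-Embed and 1391 and 1423 in Mix-Embed (-0.33 ± 0.04, adjusted p = 1.45e-08 and -0.20 ± 0.04, adjusted p = 0.000209). CANX had 1305 and 1218 CPM in 2D, 1172 and 1169 in Inject-Embed and 1082 and 1051 in Mix-Embed (-0.11 ± 0.04, adjusted p = 0.0271 and -0.24 ± 0.04, adjusted p = 3.61e-06). The Inject-Embed call of CANX ended with 8 of the 12 libraries left out one at a time and under 4 of the 9 other settings (adjusted p = 0.102 to 0.401).

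HYOU1 separated the 3D cultures. It stood at 297 and 310.5 CPM in 2D, 277 and 261 in Inject-Embed and 205 and 206 in Mix-Embed. Mix-Embed was lowest, with no overlap (-0.18 ± 0.05, adjusted p = 0.00431 in Inject-Embed and -0.57 ± 0.05, adjusted p = 2.79e-12 in Mix-Embed), and Inject-Embed was above Mix-Embed (0.39 ± 0.05, adjusted p = 4.75e-08). Its Inject-Embed call ended without Huh7 Inject-Embed replicate 2 (adjusted p = 0.119), and with the compared groups alone or either limma fit on FPKM (adjusted p = 0.0506 to 0.0591). DNAJB11 behaved alike, with 94.7 and 103 CPM in 2D, 93.6 and 92.2 in Inject-Embed and 71 and 70.8 in Mix-Embed. It fell in Mix-Embed (-0.48 ± 0.07, adjusted p = 6.18e-07), did not pass in Inject-Embed (-0.09 ± 0.07, adjusted p = 0.378) and was higher in Inject-Embed than in Mix-Embed (0.39 ± 0.07, adjusted p = 2.86e-05).

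SDF2L1 moved in opposite directions. Its level was 69.6 and 83.5 CPM in 2D, 96.2 and 86.9 in Inject-Embed and 58.6 and 66.1 in Mix-Embed. It rose in Inject-Embed (0.26 ± 0.08, adjusted p = 0.00933), fell in Mix-Embed (-0.30 ± 0.08, adjusted p = 0.00496), and differed between the 3D cultures (0.56 ± 0.08, adjusted p = 6.44e-07). The rise ended without Huh7 2D replicate 1 (adjusted p = 0.291) or Huh7 Inject-Embed replicate 1 (0.185), and with either limma fit on FPKM (adjusted p = 0.0539 to 0.0583), and the fall ended without Huh7 2D replicate 2 (adjusted p = 0.233) or Huh7 Mix-Embed replicate 1 (0.175), and with either limma fit on FPKM (adjusted p = 0.0651 to 0.0719). The difference between the 3D cultures held under all 21 alternatives. CRELD2, a secreted chaperone-like protein induced by ER stress, was the other member that rose in Inject-Embed (36.3 and 36.9 CPM in 2D, 48.1 and 40.9 in Inject-Embed; 0.28 ± 0.09, adjusted p = 0.012). It stood at 33.5 and 34.9 CPM in Mix-Embed (-0.10 ± 0.09, adjusted p = 0.511). The rise of CRELD2 ended without Huh7 2D replicate 1 (adjusted p = 0.0612) or Huh7 Inject-Embed replicate 1 (0.342), so that without either of those libraries 0 members were called higher.

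DNAJB9 and HSPA13 fell in both cultures. DNAJB9 had 65.4 and 52.6 CPM in 2D, 40.1 and 42.5 in Inject-Embed and 45.1 and 43.3 in Mix-Embed (-0.51 ± 0.10, adjusted p = 0.000102 and -0.42 ± 0.10, adjusted p = 0.00182), and its Mix-Embed call ended without Huh7 2D replicate 1 (adjusted p = 0.178), and with limma on log2(FPKM + 0.1) (adjusted p = 0.0724). HSPA13, a little-studied Hsp70 relative, had 72.4 and 66.8 CPM in 2D, 47.1 and 48.4 in Inject-Embed and 54.7 and 53.4 in Mix-Embed (-0.54 ± 0.07, adjusted p = 4.17e-08 and -0.36 ± 0.07, adjusted p = 7.57e-05). DNAJC3, a co-chaperone known as P58IPK, did not pass against 2D (0.04 ± 0.07 and -0.18 ± 0.07) but was higher in Inject-Embed than in Mix-Embed (0.22 ± 0.07, adjusted p = 0.0219), a call that ended without Huh7 Inject-Embed replicate 2 (adjusted p = 0.17) or Huh7 Mix-Embed replicate 2 (0.215), and with no filter on low counts (adjusted p = 0.0571).

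Of the 7 isomerase family members, 4 fell in each culture. PDIA4 went from 756 and 792 CPM in 2D to 678 and 666 in Inject-Embed and 635 and 634 in Mix-Embed (-0.20 ± 0.04, adjusted p = 0.000155 and -0.29 ± 0.04, adjusted p = 8.46e-07). PDIA3 (ERp57), the partner of the lectin chaperones, fell in both (-0.26 ± 0.04 and -0.29 ± 0.04), as did PDIA6 (-0.27 ± 0.05 and -0.14 ± 0.05), whose Mix-Embed call ended without Huh7 2D replicate 1 (adjusted p = 0.0974), Huh7 Mix-Embed replicate 1 (0.0544) or Huh7 Mix-Embed replicate 2 (0.181). PDIA5 fell in Inject-Embed (-0.28 ± 0.07), except without Huh7 Inject-Embed replicate 1 (adjusted p = 0.0632), and ERP44, a retriever of unfinished proteins from the Golgi, fell in Mix-Embed (-0.23 ± 0.07), except without Huh7 2D replicate 1 (adjusted p = 0.104), Huh7 Mix-Embed replicate 1 (0.1) or Huh7 Mix-Embed replicate 2 (0.0983). P4HB, also a subunit of collagen prolyl hydroxylase, did not pass the test: 1459 and 1547 CPM in 2D, 1504 and 1456 in Inject-Embed and 1544 and 1539 in Mix-Embed (-0.02 ± 0.04 and 0.04 ± 0.04). TXNDC5 had 6.93 and 7.54 CPM in 2D, 9.31 and 5.61 in Inject-Embed and 8.57 and 11.8 in Mix-Embed, with Inject-Embed replicates on either side of 2D (0.06 ± 0.20 and 0.48 ± 0.19). MANF, a secreted partner of HSPA5, had 47.4 and 54.4 CPM in 2D, 50.6 and 43 in Inject-Embed and 44 and 46.2 in Mix-Embed and did not pass (-0.12 ± 0.09 and -0.17 ± 0.09). SEC61B (58.5 and 72.6 CPM in 2D, 71.1 and 72.3 in Inject-Embed and 65.5 and 68.2 in Mix-Embed) did not pass either (0.13 ± 0.08 and 0.03 ± 0.08). SSR1, a translocon-associated protein, fell in Mix-Embed (-0.22 ± 0.05), except without Huh7 2D replicate 1 (adjusted p = 0.0914) or Huh7 Mix-Embed replicate 1 (0.0626).

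**Figure D3:**
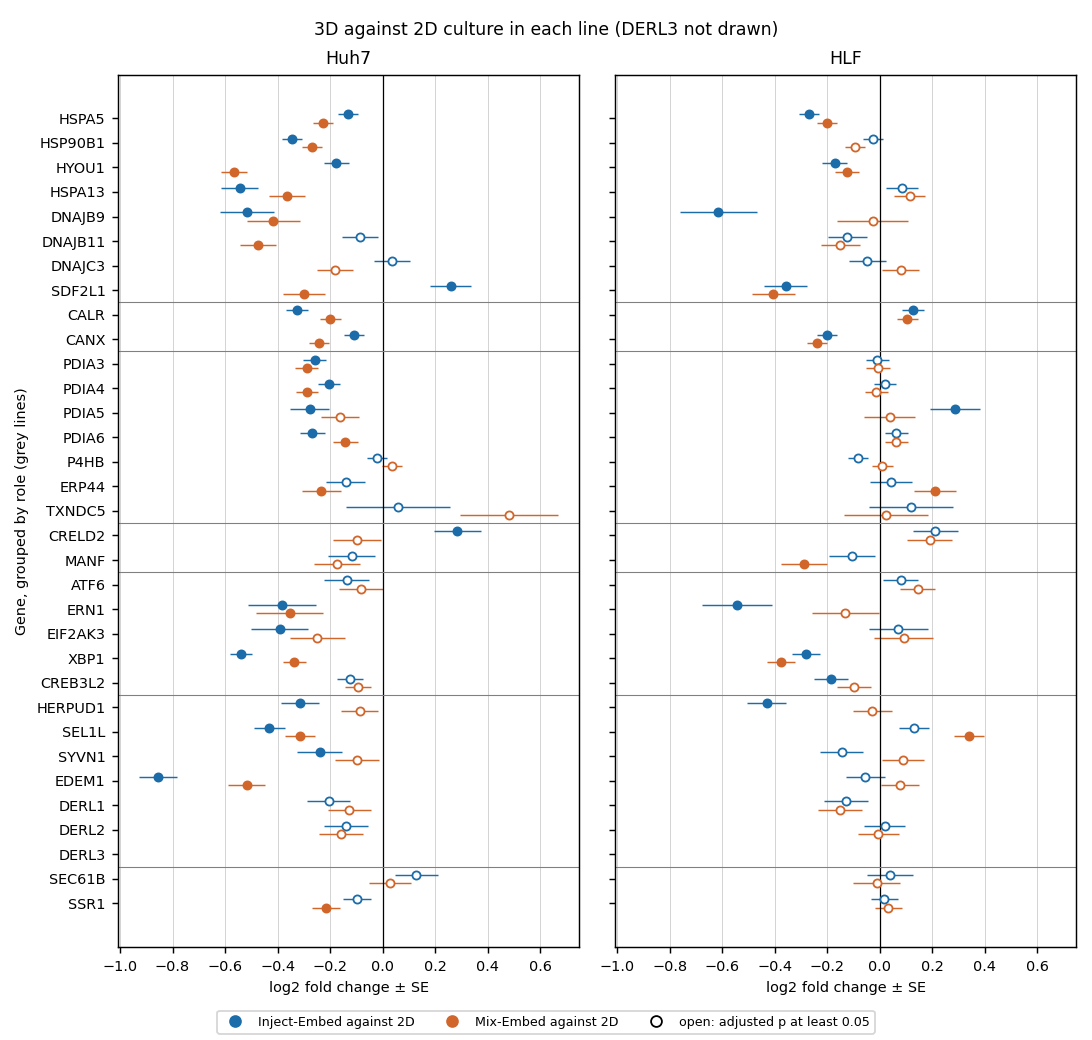
Log2 fold change ± SE (x axis) of 32 members in Inject-Embed (blue) and Mix-Embed (orange) against 2D in Huh7 (left) and HLF (right); filled points have an adjusted p under 0.05 and grey lines part the roles. In Huh7 nearly all filled points lie left of 0, with EDEM1 at -0.85, and SDF2L1 and CRELD2 right of 0 in Inject-Embed; in HLF filled points lie on both sides.

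Set against each other directly, the Huh7 3D cultures differed in 11 members. Inject-Embed was higher than Mix-Embed in 6 and lower in 5, where 9.55% and 13.4% of all tested genes were called. The members higher in Inject-Embed were mainly HSPA5 helpers (HYOU1, DNAJB11, DNAJC3 and SDF2L1), with CRELD2 (0.38 ± 0.09) and CANX (0.13 ± 0.04). The CRELD2 call ended without Huh7 Inject-Embed replicate 1 (adjusted p = 0.115), and the CANX call without Huh7 Mix-Embed replicate 2 (adjusted p = 0.0834). Those lower were EDEM1, XBP1 and HERPUD1, given above, with CALR (-0.13 ± 0.04) and PDIA6 (-0.13 ± 0.05). The CALR call ended with 7 of the 12 libraries left out one at a time and under 4 of the 9 other settings (adjusted p = 0.0569 to 0.297). That of PDIA6 ended with 10 of the 12 libraries left out one at a time and under 8 of the 9 other settings (adjusted p = 0.0509 to 0.323). Library totals alone called 9 higher and 2 lower. DESeq2 and both limma fits also called 2 members lower, and the same count of 2 was reached without HLF 2D replicate 2, Huh7 Inject-Embed replicate 2, Huh7 Mix-Embed replicate 2 or either HLF Inject-Embed library.

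In HLF, the line with the higher sum of mesenchymal markers, members moved in both directions. HSPA5, XBP1, CANX, SDF2L1 and HYOU1 were lower in both 3D cultures, and CALR was higher in both. In Inject-Embed 9 of the 33 members fell and 2 rose, where 8.86% and 9.09% of all tested genes were called lower and higher. With library totals alone 8 fell and 4 rose. In Mix-Embed 6 fell and 3 rose, where 14.6% and 14.4% of all genes were called, so the members' shares there were near the background. With library totals alone 5 fell and 7 rose, and with RLE size factors 7 fell and 2 rose. Medians over the 32 members with counts were -0.04 and -0.01, beside 0.00 over all tested genes in each. The summed mesenchymal markers were higher in 3D (3220 to 3240 CPM in Inject-Embed and 2900 to 2970 in Mix-Embed) than in 2D (2330). TNC (means in 2D, Inject-Embed and Mix-Embed 489.7, 1104 and 977 CPM) and CD44 (377, 606 and 616 CPM) were higher and CDH2 slightly so, while MSN (511, 484 and 448 CPM) and ZEB1 (16.7, 15.8 and 13.5 CPM) were lower in both and VIM (691, 753 and 612 CPM) in Mix-Embed. The part of these markers was not tested.

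HSPA5 had 963 and 912 CPM in HLF 2D, 777 and 778 in Inject-Embed and 819 and 814 in Mix-Embed. Both 3D groups lay wholly below 2D (-0.27 ± 0.04, adjusted p = 4.57e-07 and -0.20 ± 0.04, adjusted p = 5.14e-05). XBP1, low in this line, had 78.7 and 76.1 CPM in 2D, 63.8 and 63.6 in Inject-Embed and 60.1 and 59.3 in Mix-Embed, again without overlap (-0.28 ± 0.05, adjusted p = 0.000112 and -0.38 ± 0.05, adjusted p = 4.09e-07). CANX fell from 1227 and 1245 CPM in 2D to 1080.2 and 1067 in Inject-Embed and 1049.5 and 1042 in Mix-Embed (-0.20 ± 0.04, adjusted p = 7.33e-05 and -0.24 ± 0.04, adjusted p = 2.01e-06). SDF2L1 fell from 67.5 and 73 CPM in 2D to 51.5 and 58 in Inject-Embed and 52.6 and 53.4 in Mix-Embed (-0.36 ± 0.08, adjusted p = 0.000857 and -0.41 ± 0.08, adjusted p = 9.75e-05), and its Inject-Embed call ended without HLF Inject-Embed replicate 1 (adjusted p = 0.0641), and with either limma fit on FPKM (adjusted p = 0.0642 to 0.0727). HYOU1 had 395 and 407 CPM in 2D, 360.0 and 353 in Inject-Embed and 354 and 382 in Mix-Embed (-0.17 ± 0.05, adjusted p = 0.00699 and -0.13 ± 0.05, adjusted p = 0.0403). The HYOU1 calls were among the less stable: that in Inject-Embed ended without HLF 2D replicate 2 (adjusted p = 0.118) or HLF Inject-Embed replicate 2 (0.111), and with either limma fit on FPKM (adjusted p = 0.107 to 0.12), and that in Mix-Embed with 5 of the 12 libraries left out one at a time and under 3 of the 9 other settings (adjusted p = 0.0712 to 0.562).

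Several members fell in Inject-Embed alone by the test against 2D and were also lower there than in Mix-Embed. DNAJB9 had 12.1 and 13.5 CPM in 2D, 9.47 and 7.28 in Inject-Embed and 11.9 and 13.2 in Mix-Embed (-0.62 ± 0.15, adjusted p = 0.00161 against 2D and -0.59 ± 0.15, adjusted p = 0.0063 against Mix-Embed). HERPUD1 had 60.6 and 57.2 CPM in 2D, 43.8 and 43.6 in Inject-Embed and 61.8 and 54 in Mix-Embed (-0.43 ± 0.08, adjusted p = 2.3e-05 against 2D and -0.40 ± 0.08, adjusted p = 0.000197 against Mix-Embed). For both genes the Inject-Embed libraries lay below all others of the line. Without HLF Inject-Embed replicate 2, DNAJB9 was called in neither comparison (adjusted p = 0.107 and 0.213). The DNAJB9 call against Mix-Embed also ended without HLF Mix-Embed replicate 2 (adjusted p = 0.121) and with both limma fits. ERN1 had 17.8 and 22.5 CPM in 2D, 13.2 and 14.5 in Inject-Embed and 18.3 and 18.5 in Mix-Embed (-0.54 ± 0.13, adjusted p = 0.00222 against 2D and -0.41 ± 0.13, adjusted p = 0.0474 against Mix-Embed). The call of ERN1 against 2D ended without HLF 2D replicate 2 (adjusted p = 0.159) or HLF Inject-Embed replicate 1 (0.0511), and with either limma fit on FPKM (adjusted p = 0.0744 to 0.0819), and that against Mix-Embed with 6 of the 12 libraries left out one at a time and under 4 of the 9 other settings (adjusted p = 0.056 to 0.3).

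CALR was the member that rose in both HLF 3D cultures: 1043 and 989.8 CPM in 2D, 1122 and 1096 in Inject-Embed and 1082 and 1104 in Mix-Embed (0.13 ± 0.04, adjusted p = 0.0239 and 0.10 ± 0.04, adjusted p = 0.0475). Neither 3D group overlapped 2D, but the change was small. The Inject-Embed call of CALR ended without HLF 2D replicate 2 or HLF Inject-Embed replicate 1, and with either limma fit on FPKM (adjusted p = 0.0508 to 0.053). The Mix-Embed call of CALR ended with 4 of the 12 libraries left out one at a time and under 3 of the 9 other settings (adjusted p = 0.0501 to 0.284). SEL1L rose in Mix-Embed, from 121 and 123 to 157 and 152 CPM (0.34 ± 0.06, adjusted p = 6.36e-06), and held under all 21 alternatives. In Inject-Embed SEL1L had 138 and 129.8 CPM (0.13 ± 0.06, adjusted p = 0.118), and it was lower there than in Mix-Embed (-0.21 ± 0.06, adjusted p = 0.0135) except without HLF Inject-Embed replicate 2 (adjusted p = 0.212) or HLF Mix-Embed replicate 1 (0.093), and with either limma fit on FPKM (adjusted p = 0.0585 to 0.0767). PDIA5 rose in Inject-Embed, from 20.6 and 20.7 to 24.6 and 25.7 CPM (0.29 ± 0.09, adjusted p = 0.0282), and ERP44 in Mix-Embed, from 41.8 and 38.7 to 46 and 47.1 (0.21 ± 0.08, adjusted p = 0.0393). The PDIA5 call ended with 4 of the 12 libraries left out one at a time and under 2 of the 9 other settings (adjusted p = 0.0522 to 0.176). The ERP44 call ended with 4 of the 12 libraries left out one at a time and under 2 of the 9 other settings (adjusted p = 0.0528 to 0.249).

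CREB3L2 fell in Inject-Embed (56.6 and 59.9 CPM in 2D, 53.5 and 48.9 in Inject-Embed and 55.1 and 53.7 in Mix-Embed; -0.19 ± 0.06, adjusted p = 0.0352), and MANF fell in Mix-Embed (48.3 and 45.9 CPM in 2D, 46 and 41.6 in Inject-Embed and 37.2 and 39.7 in Mix-Embed; -0.29 ± 0.09, adjusted p = 0.00987). The CREB3L2 call ended without HLF 2D replicate 1 (adjusted p = 0.0506), HLF 2D replicate 2 (0.298) or HLF Inject-Embed replicate 2 (0.417), and with library totals alone or either limma fit on FPKM (adjusted p = 0.126 to 0.166). That of MANF ended without HLF 2D replicate 1 (adjusted p = 0.101) or HLF Mix-Embed replicate 1 (0.135), and with either limma fit on FPKM (adjusted p = 0.101 to 0.109). ATF6 (75 and 77.7 CPM in 2D, 81.8 and 79.5 in Inject-Embed and 84.3 and 84.4 in Mix-Embed) and EIF2AK3 (20.9 and 21.3 CPM in 2D, 23.8 and 20.5 in Inject-Embed and 24 and 21 in Mix-Embed) did not pass, at 0.08 ± 0.07 and 0.14 ± 0.07, and 0.07 ± 0.11 and 0.09 ± 0.11. In HLF, HSP90B1 had 1395 and 1354 CPM in 2D, 1367 and 1334 in Inject-Embed and 1328 and 1248 in Mix-Embed (-0.03 ± 0.04 and -0.09 ± 0.04). EDEM1 had 66.5 and 59.3 CPM in 2D, 56.8 and 64.2 in Inject-Embed and 63.3 and 69.2 in Mix-Embed, with overlapping groups (-0.06 ± 0.07 and 0.08 ± 0.07).

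The remaining HLF members did not pass the test against 2D. PDIA4 had 389 and 370.1 CPM in 2D, 386 and 384 in Inject-Embed and 371 and 381 in Mix-Embed (0.02 ± 0.04 and -0.01 ± 0.04). P4HB had 698 and 714 CPM in 2D, 662 and 672 in Inject-Embed and 696 and 725 in Mix-Embed (-0.08 ± 0.04 and 0.01 ± 0.04). TXNDC5 had 12.8 and 14 CPM in 2D, 14.9 and 14.2 in Inject-Embed and 12.4 and 14.8 in Mix-Embed (0.12 ± 0.16 and 0.02 ± 0.16). These 3 members belong to the isomerase family, all of them with a thioredoxin-like fold. CRELD2 lay higher in every 3D library (39.2 and 40.0 CPM in 2D, 46.8 and 44.9 in Inject-Embed and 45 and 45.4 in Mix-Embed) without passing (0.21 ± 0.09, adjusted p = 0.0829, and 0.19 ± 0.09, adjusted p = 0.0931). SYVN1 (55.9 and 58.1 CPM in 2D, 53.2 and 50.0 in Inject-Embed and 55.6 and 65.3 in Mix-Embed) was at -0.14 ± 0.08 and 0.09 ± 0.08, and SEC61B (36.8 and 34.7 CPM in 2D, 36.6 and 36.9 in Inject-Embed and 34.4 and 36.5 in Mix-Embed) at 0.04 ± 0.09 and -0.01 ± 0.09. The values of DNAJB11, DNAJC3, HSPA13, PDIA3, PDIA6, DERL1, DERL2 and SSR1 lay between -0.15 (DERL1, Mix-Embed) and 0.11 (HSPA13, Mix-Embed).

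Between the HLF 3D cultures, 4 members were lower in Inject-Embed than in Mix-Embed (DNAJB9, ERN1, HERPUD1 and SEL1L) and 0 were higher, where 4.71% and 3.56% of all tested genes were called. At an unadjusted p under 0.05 from edgeR, 2 members were higher, and DESeq2 called 0. The limma fits on FPKM called 1 member lower, as did the fit without HLF Inject-Embed replicate 2, and 2 were called without HLF Mix-Embed replicate 2.

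**Figure D4:**
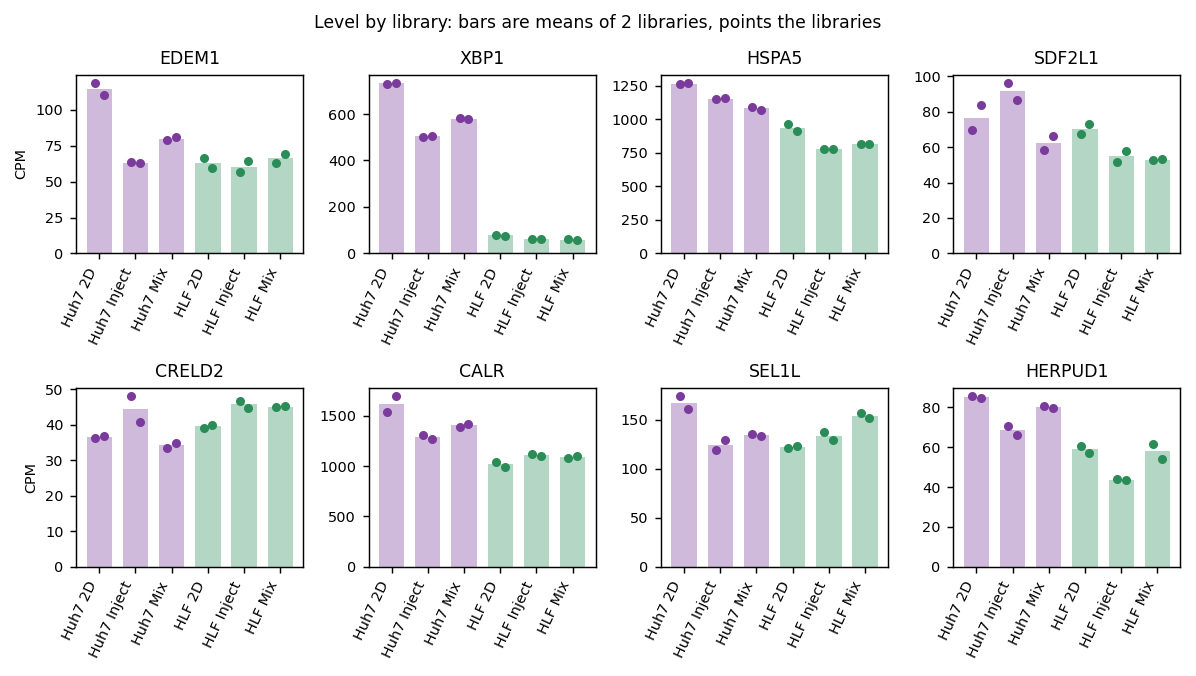
CPM of 8 members in the 12 libraries; bars (from 0) are means of 2 libraries, points the libraries, purple for Huh7 and green for HLF. EDEM1 and XBP1 are lowest in Inject-Embed among the Huh7 groups, SDF2L1 is highest there in Huh7 but lower in both 3D groups of HLF, and SEL1L is lower in 3D in Huh7 and highest in HLF Mix-Embed (157 and 152 CPM).

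No library is shared between the lines, so their calls can be overlaid. Of the members that fell in Inject-Embed, 7 fell in both lines (HSPA5, HYOU1, DNAJB9, CANX, ERN1, XBP1 and HERPUD1), or 38.9% of the 18 in Huh7 and 77.8% of the 9 in HLF. Over all tested genes, 376 fell in both, or 11.7% of those that fell in Huh7 and 21.9% in HLF. Members already fell more often than all tested genes in each line alone (54.5% against 16.7% in Huh7, 27.3% against 8.86% in HLF). That alone raises the members' overlap shares. In Mix-Embed 5 fell in both (HSPA5, HYOU1, SDF2L1, CANX and XBP1), or 27.8% of 18 and 83.3% of 6, beside 642 of all tested genes, or 31.4% and 22.8%. There 54.5% of members and 10.6% of all tested genes fell in Huh7, and 18.2% and 14.6% in HLF. HSPA5, HYOU1, CANX and XBP1 are on both lists, which share the 2D libraries of each line. In Inject-Embed only XBP1 and HERPUD1 kept the call in both lines under every alternative. The calls of HSPA5 and CANX ended under some alternatives in Huh7, that of DNAJB9 in HLF, and those of HYOU1 and ERN1 in each line. In Mix-Embed the call of SDF2L1 ended under some alternatives in Huh7 and that of HYOU1 in HLF. SDF2L1 and CRELD2 rose in Huh7, and CALR, PDIA5, SEL1L and ERP44 in HLF.

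Whether the response to 3D culture differed between the lines was tested as the Huh7 log2 fold change minus that of HLF. The Huh7 response was more negative for CALR, EDEM1, SEL1L, HSPA13 and HSP90B1, among others, and more positive for SDF2L1 in Inject-Embed. For Inject-Embed against 2D, 11 members had a lower and 1 a higher value in Huh7, where 13.1% and 11.7% of all tested genes were called. For Mix-Embed against 2D the counts were 12 and 0, where 10.2% were called in each direction, and edgeR's unadjusted p was under 0.05 for 0 higher members, while DESeq2 also called 0. For Inject-Embed against Mix-Embed, 5 were higher and 2 lower, where 4.62% and 5.95% were called.

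CALR, which fell in Huh7 and rose in HLF, differed (-0.45 ± 0.06, adjusted p = 3.12e-08 for Inject-Embed and -0.30 ± 0.06, adjusted p = 7.31e-05 for Mix-Embed). EDEM1 fell in Huh7 and did not pass in HLF, and the difference itself passed in both cultures (-0.80 ± 0.10, adjusted p = 4.6e-08 and -0.59 ± 0.10, adjusted p = 1.44e-05). For SEL1L, lower in Huh7 3D and higher in HLF Mix-Embed, the differences were -0.56 ± 0.08, adjusted p = 5.4e-07 and -0.65 ± 0.08, adjusted p = 2.33e-08. HSPA13 differed likewise (-0.63 ± 0.09, adjusted p = 8.48e-07 and -0.48 ± 0.09, adjusted p = 9.24e-05). These 4 genes held in both cultures under all 21 alternatives. HSP90B1 differed in Inject-Embed (-0.32 ± 0.05, adjusted p = 7.86e-06) and in Mix-Embed (-0.18 ± 0.05, adjusted p = 0.014), the latter not without Huh7 Mix-Embed replicate 2 (adjusted p = 0.0793) or HLF Mix-Embed replicate 1 (0.0552). HYOU1 differed in Mix-Embed (-0.44 ± 0.07, adjusted p = 2.58e-06).

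Isomerases made up 4 of the 11 lower values in Inject-Embed (PDIA3 -0.25 ± 0.06, PDIA4 -0.22 ± 0.06, PDIA5 -0.56 ± 0.12 and PDIA6 -0.33 ± 0.06). They were also 4 of the 12 in Mix-Embed (PDIA3 -0.28 ± 0.06, PDIA4 -0.27 ± 0.06, PDIA6 -0.20 ± 0.06 and ERP44 -0.44 ± 0.11). The difference of PDIA4 in Inject-Embed ended without HLF 2D replicate 2 (adjusted p = 0.0877), and that of PDIA6 in Mix-Embed without HLF 2D replicate 2 (adjusted p = 0.0755) or Huh7 Mix-Embed replicate 2 (0.0874). XBP1 fell more in Huh7 in Inject-Embed (-0.26 ± 0.07), except without HLF 2D replicate 2 (adjusted p = 0.0591), and EIF2AK3 differed there too (-0.46 ± 0.16), a call lost with 5 of the 12 libraries left out one at a time (adjusted p = 0.0618 to 0.224). In Mix-Embed, DNAJB11 (-0.33 ± 0.10) and SSR1 (-0.25 ± 0.07) also differed. The DNAJB11 call ended without Huh7 2D replicate 2 (adjusted p = 0.0831), HLF 2D replicate 1 (0.0572) or Huh7 Mix-Embed replicate 1 (0.0523), and the SSR1 call without Huh7 2D replicate 1 (adjusted p = 0.0995) or Huh7 Mix-Embed replicate 1 (0.0864).

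SDF2L1 was the single member with a more positive response in Huh7 in Inject-Embed (0.62 ± 0.11, adjusted p = 3.1e-05). The HSPA5 helpers recurred in the contrast of Inject-Embed with Mix-Embed, where all 5 higher values belonged to that role: HYOU1 (0.44 ± 0.07, adjusted p = 8.92e-06), SDF2L1 (0.51 ± 0.12, adjusted p = 0.00181), DNAJB11 (0.36 ± 0.10, adjusted p = 0.0149), DNAJC3 (0.34 ± 0.10, adjusted p = 0.0182) and HSPA5 itself (0.17 ± 0.05, adjusted p = 0.0394). The DNAJB11 call ended without Huh7 Inject-Embed replicate 1 (adjusted p = 0.0533) or HLF Inject-Embed replicate 1 (0.0689), that of DNAJC3 without Huh7 Inject-Embed replicate 2 (adjusted p = 0.0862) or Huh7 Mix-Embed replicate 2 (0.112), and that of HSPA5 with 4 of the 12 libraries left out one at a time and under 1 of the 9 other settings (adjusted p = 0.0619 to 0.138). The 2 lower values were XBP1 (-0.30 ± 0.07, adjusted p = 0.00305), except without HLF Inject-Embed replicate 1 (adjusted p = 0.0588) or HLF Inject-Embed replicate 2 (0.0519), and PDIA5 (-0.36 ± 0.12, adjusted p = 0.0445), which was lost with 9 of the 12 libraries left out one at a time and under 7 of the 9 other settings (adjusted p = 0.0534 to 0.379). Library totals alone called 9 members higher and 1 lower in this contrast, and RLE size factors 6 and 1.

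The members with an ERSE or ERSE-II match were read beside the other members with a promoter entry, as counts without a test. In Huh7 Inject-Embed, 7 of the 9 with a match fell and 2 rose, and 10 of the 21 without a match fell. In Huh7 Mix-Embed 7 of 9 and 10 of 21 fell. In HLF Inject-Embed 6 of 9 fell and 1 rose, against 3 and 1 of 21, and in HLF Mix-Embed 5 of 9 fell and 1 rose, against 1 and 2 of 21. SDF2L1 and CRELD2, the pair that rose in Huh7 Inject-Embed, both carry a match, as do HSPA5, XBP1, HYOU1 and CANX, which fell in all 4 comparisons with 2D. Some of these calls ended under alternatives, as given above. Among them were both rises, CANX in Huh7 Inject-Embed and HYOU1 in HLF Mix-Embed. Over all tested genes, 16.7% fell and 13.2% rose in Huh7 Inject-Embed, and 10.6% and 11.2% in Huh7 Mix-Embed. In HLF these shares were 8.86% and 9.09% in Inject-Embed and 14.6% and 14.4% in Mix-Embed. The medians with and without a match were -0.20 and 0.02 in HLF Inject-Embed and -0.18 and -0.14 in Huh7 Inject-Embed. In Mix-Embed they were -0.13 and 0.03 in HLF and -0.24 and -0.18 in Huh7.

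The other genes of the pathway were followed in 6 lists, each against 2D. Their counts are to be read beside the shares of all tested genes called higher and lower, which for Inject-Embed were 13.2% and 16.7% (Huh7) or 9.09% and 8.86% (HLF), and for Mix-Embed 11.2% and 10.6% (Huh7) or 14.4% and 14.6% (HLF). The list of stress signalling beside the 3 sensors, which holds ATF4, its targets and relatives of ATF6, gave 2 of 17 higher and 7 lower in Huh7 Inject-Embed, 2 of 17 higher and 3 lower in Huh7 Mix-Embed, 2 of 17 higher and 10 lower in HLF Inject-Embed and 2 of 17 higher and 7 lower in HLF Mix-Embed. TRIB3, a pseudokinase induced through ATF4, fell in all 4 comparisons: 50.7 and 51.3 CPM in Huh7 2D against 21 and 20.1 in Inject-Embed and 37.1 and 42.2 in Mix-Embed (-1.31 ± 0.10, adjusted p = 6.07e-14 and -0.37 ± 0.09, adjusted p = 0.00297). In HLF it went from 47.5 and 41 CPM in 2D to 25 and 28.7 in Inject-Embed and 27.6 and 28 in Mix-Embed (-0.72 ± 0.10 and -0.67 ± 0.10). The Huh7 Mix-Embed call of TRIB3 ended without Huh7 Mix-Embed replicate 1 (adjusted p = 0.123). ATF3, a stress-induced factor, fell in Huh7 Inject-Embed (-0.80 ± 0.19), HLF Inject-Embed (-0.75 ± 0.11) and HLF Mix-Embed (-1.10 ± 0.11) and did not pass in Huh7 Mix-Embed (-0.28 ± 0.18). The ATF3 call ended in Huh7 Inject-Embed without Huh7 2D replicate 1 (adjusted p = 0.076). PPP1R15A (GADD34), which reverses the translational block, rose in Huh7 Inject-Embed (0.38 ± 0.12) and Huh7 Mix-Embed (0.44 ± 0.12), fell in HLF Inject-Embed (-0.37 ± 0.11) and did not pass in HLF Mix-Embed (-0.17 ± 0.10). The PPP1R15A call ended in Huh7 Inject-Embed without Huh7 2D replicate 1 (adjusted p = 0.0804) or Huh7 Inject-Embed replicate 2 (0.359), and in Huh7 Mix-Embed without Huh7 Mix-Embed replicate 2 (adjusted p = 0.0783), and with either limma fit on FPKM (adjusted p = 0.0509 to 0.0539), and in HLF Inject-Embed without HLF 2D replicate 2 (adjusted p = 0.0851) or HLF Inject-Embed replicate 1 (0.306), and with either limma fit on FPKM (adjusted p = 0.112 to 0.13). ATF6B, the paralog of ATF6, rose in HLF Inject-Embed (0.36 ± 0.07) and HLF Mix-Embed (0.64 ± 0.07), fell in Huh7 Inject-Embed (-0.32 ± 0.08) and did not pass in Huh7 Mix-Embed (-0.14 ± 0.08). MBTPS1, the protease that first cuts ATF6, rose in HLF Inject-Embed (0.19 ± 0.05) and HLF Mix-Embed (0.35 ± 0.05) and did not pass in Huh7 Inject-Embed (-0.06 ± 0.05) and Huh7 Mix-Embed (-0.02 ± 0.05). The MBTPS1 call ended in HLF Inject-Embed without HLF Inject-Embed replicate 1 (adjusted p = 0.0731).

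Other ER folding factors gave 4 of 32 higher and 13 lower in Huh7 Inject-Embed, 4 of 32 higher and 7 lower in Huh7 Mix-Embed, 9 of 32 higher and 2 lower in HLF Inject-Embed and 12 of 32 higher and 0 lower in HLF Mix-Embed. SERPINH1 (HSP47), the collagen chaperone, rose in all 4: in Huh7 from 194 and 212 CPM in 2D to 319 and 313 in Inject-Embed and 229 and 239 in Mix-Embed (0.64 ± 0.05, adjusted p = 1.16e-13 and 0.21 ± 0.05, adjusted p = 0.00272), and in HLF from 170.4 and 174 CPM in 2D to 272 and 299.5 in Inject-Embed and 375 and 378 in Mix-Embed (0.73 ± 0.05 and 1.13 ± 0.05). Its Huh7 Mix-Embed call ended without Huh7 2D replicate 1 (adjusted p = 0.0916) or Huh7 Mix-Embed replicate 2 (0.0801). FKBP10, another collagen foldase, rose in Huh7 Mix-Embed (0.17 ± 0.05), HLF Inject-Embed (0.81 ± 0.05) and HLF Mix-Embed (0.98 ± 0.05) and fell in Huh7 Inject-Embed (-0.26 ± 0.05). The FKBP10 call ended in Huh7 Mix-Embed without Huh7 2D replicate 1 (adjusted p = 0.186), Huh7 Mix-Embed replicate 1 (0.0798) or Huh7 Mix-Embed replicate 2 (0.0711), and with either limma fit on FPKM (adjusted p = 0.0801 to 0.0867). QSOX1, a secreted sulfhydryl oxidase, fell in Huh7 Inject-Embed (-1.53 ± 0.10), Huh7 Mix-Embed (-1.25 ± 0.09) and HLF Inject-Embed (-0.19 ± 0.05) and did not pass in HLF Mix-Embed (-0.12 ± 0.05). The QSOX1 call ended in HLF Inject-Embed without HLF 2D replicate 1 (adjusted p = 0.128) or HLF Inject-Embed replicate 1 (0.211), and with either limma fit on FPKM (adjusted p = 0.109 to 0.173). ERO1A, the oxidase that recharges P4HB, stood at 169 and 152 CPM in 2D, 79.5 and 80.6 in Inject-Embed and 145 and 138 in Mix-Embed in Huh7. It fell in Huh7 Inject-Embed (-1.0 ± 0.07) and Huh7 Mix-Embed (-0.19 ± 0.06) and did not pass in HLF Inject-Embed (0.07 ± 0.06) and HLF Mix-Embed (-0.09 ± 0.07). The ERO1A call ended in Huh7 Mix-Embed without Huh7 2D replicate 1 (adjusted p = 0.38), Huh7 Mix-Embed replicate 1 (0.0546) or Huh7 Mix-Embed replicate 2 (0.216), and with either limma fit on FPKM (adjusted p = 0.111 to 0.122). For the 0 lower in HLF Mix-Embed, edgeR's unadjusted p was under 0.05 for 2 genes and DESeq2 called 0.

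For N-glycosylation and glycan trimming the counts were 0 of 17 higher and 8 lower in Huh7 Inject-Embed, 1 of 17 higher and 6 lower in Huh7 Mix-Embed, 3 of 17 higher and 1 lower in HLF Inject-Embed and 5 of 17 higher and 1 lower in HLF Mix-Embed. UGGT1, which re-glucosylates misfolded glycoproteins for the calnexin cycle, fell in Huh7 Inject-Embed (-0.40 ± 0.05), Huh7 Mix-Embed (-0.61 ± 0.05) and HLF Inject-Embed (-0.17 ± 0.05) and did not pass in HLF Mix-Embed (-0.13 ± 0.05). The UGGT1 call ended in HLF Inject-Embed without HLF 2D replicate 2 (adjusted p = 0.283), HLF Inject-Embed replicate 1 (0.0524) or HLF Inject-Embed replicate 2 (0.231), and with library totals alone or either limma fit on FPKM (adjusted p = 0.102 to 0.169). RPN2, a subunit of the oligosaccharyltransferase, rose in HLF Inject-Embed (0.15 ± 0.04) and HLF Mix-Embed (0.17 ± 0.04) and fell in Huh7 Inject-Embed (-0.38 ± 0.04) and Huh7 Mix-Embed (-0.27 ± 0.04). The RPN2 call ended in HLF Inject-Embed without HLF 2D replicate 1 (adjusted p = 0.0759) or HLF Inject-Embed replicate 1 (0.0842), and in HLF Mix-Embed without HLF Mix-Embed replicate 1 (adjusted p = 0.0953). Translocation and signal peptide cleavage gave 4 of 17 higher and 6 lower in Huh7 Inject-Embed, 0 of 17 higher and 8 lower in Huh7 Mix-Embed, 1 of 17 higher and 6 lower in HLF Inject-Embed and 2 of 17 higher and 6 lower in HLF Mix-Embed. SPCS3, of the signal peptidase, fell in Huh7 Inject-Embed (-0.47 ± 0.06), Huh7 Mix-Embed (-0.44 ± 0.06) and HLF Inject-Embed (-0.25 ± 0.05) and did not pass in HLF Mix-Embed (-0.13 ± 0.05). The SPCS3 call ended in HLF Inject-Embed with either limma fit on FPKM (adjusted p = 0.0835 to 0.098). SSR3, of the translocon-associated complex, fell in Huh7 Inject-Embed (-0.18 ± 0.05), Huh7 Mix-Embed (-0.23 ± 0.05), HLF Inject-Embed (-0.44 ± 0.05) and HLF Mix-Embed (-0.58 ± 0.05). The SSR3 call ended in Huh7 Inject-Embed without Huh7 2D replicate 1 (adjusted p = 0.106) or Huh7 Inject-Embed replicate 2 (0.0702), and with the compared groups alone (adjusted p = 0.0698). The count of 0 higher in N-glycosylation (Huh7 Inject-Embed) stayed 0 at edgeR's unadjusted p under 0.05 and with DESeq2, and that in translocation (Huh7 Mix-Embed) became 2 and 0.

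Other ERAD factors gave 4 of 25 higher and 6 lower in Huh7 Inject-Embed, 3 of 25 higher and 8 lower in Huh7 Mix-Embed, 7 of 25 higher and 4 lower in HLF Inject-Embed and 7 of 25 higher and 5 lower in HLF Mix-Embed. The lectin OS9, which delivers substrates to SEL1L, rose in Huh7 Mix-Embed (0.22 ± 0.05), HLF Inject-Embed (0.31 ± 0.05) and HLF Mix-Embed (0.50 ± 0.05) and did not pass in Huh7 Inject-Embed (-0.08 ± 0.05). NPLOC4, a cofactor of the segregase VCP, fell in Huh7 Inject-Embed (-0.17 ± 0.05), Huh7 Mix-Embed (-0.46 ± 0.05), HLF Inject-Embed (-0.28 ± 0.05) and HLF Mix-Embed (-0.31 ± 0.05). The NPLOC4 call ended in Huh7 Inject-Embed without Huh7 2D replicate 2 (adjusted p = 0.0575) or Huh7 Inject-Embed replicate 2 (0.228), and with the compared groups alone (adjusted p = 0.0861). VCP itself, which pulls substrates out of the membrane, fell in Huh7 Mix-Embed (-0.33 ± 0.04), HLF Inject-Embed (-0.21 ± 0.04) and HLF Mix-Embed (-0.25 ± 0.04) and did not pass in Huh7 Inject-Embed (-0.10 ± 0.04). EDEM3, a relative of EDEM1, rose in HLF Inject-Embed (0.27 ± 0.07) and HLF Mix-Embed (0.37 ± 0.07) and fell in Huh7 Inject-Embed (-0.44 ± 0.07) and Huh7 Mix-Embed (-0.50 ± 0.07). The EDEM3 call ended in HLF Inject-Embed without HLF 2D replicate 1 (adjusted p = 0.111) or HLF Inject-Embed replicate 1 (0.0866). Transport between ER and Golgi gave 2 of 23 higher and 10 lower in Huh7 Inject-Embed, 1 of 23 higher and 11 lower in Huh7 Mix-Embed, 2 of 23 higher and 5 lower in HLF Inject-Embed and 5 of 23 higher and 6 lower in HLF Mix-Embed. LMAN1 (ERGIC-53), a cargo receptor for glycoproteins, fell in Huh7 Inject-Embed (-0.41 ± 0.05) and Huh7 Mix-Embed (-0.23 ± 0.05) and did not pass in HLF Inject-Embed (-0.00 ± 0.05) and HLF Mix-Embed (0.01 ± 0.05). PREB, the exchange factor that starts COPII coats, rose in Huh7 Inject-Embed (0.35 ± 0.07), fell in HLF Inject-Embed (-0.35 ± 0.07) and HLF Mix-Embed (-0.31 ± 0.07) and did not pass in Huh7 Mix-Embed (-0.00 ± 0.07). Between the lines in 2D, the same lists in the order above had 7, 14, 10, 11, 13 and 18 genes higher in Huh7 and 7, 14, 5, 4, 7 and 3 lower, of 17, 32, 17, 17, 25 and 23 tested, where 38.1% and 39.2% of all tested genes were called.

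**Figure D5:**
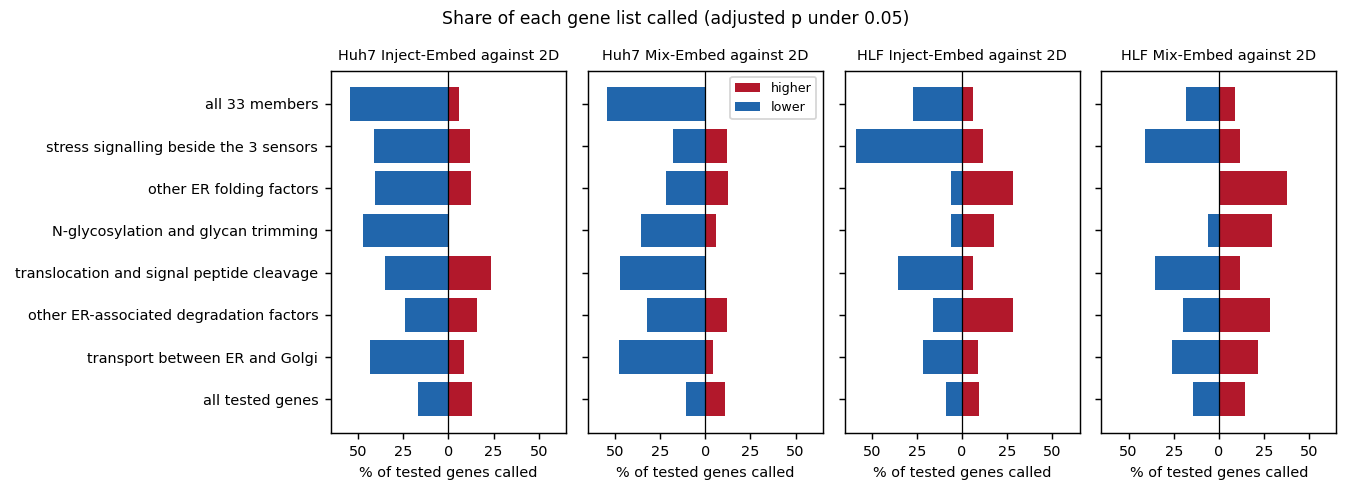
Share of tested genes called higher (red, to the right) or lower (blue, to the left) against 2D for the 33 members, 6 related lists and all tested genes, in 4 comparisons (panels; x axis in percent, adjusted p under 0.05). In Huh7 the lower bar of the members reaches 54.5% in both cultures against 16.7% and 10.6% of all tested genes, while in HLF Mix-Embed it is 18.2% against 14.6%.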

How the data were processed

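The authors deposited one table of raw counts per gene and one of FPKM for the 12 libraries, per the file headers. Libraries were poly-A selected and read as pairs, per the labels. The submitters' processing notes name FastQC, Trimmomatic, STAR 2.7.9a, featureCounts and GRCh38 (hg38); their order, settings, strandedness and gene models are not stated there or in the labels. The deposited FPKM equalled count over length and library total within a relative 1.5e-08 in 167453 values with at least 20 counts.

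Counts were scaled by TMM, filtered with filterByExpr (minimum count 10) and fitted in edgeR 4.0.16 (R 4.3.3) with a mean per group over all 12 libraries. The groups shared 1 estimate of spread per gene, moderated across genes (6 residual degrees of freedom and a median of 36.3 prior ones). The common dispersion was 0.00211, a biological coefficient of variation of 4.6%. The quasi-likelihood test gave 10 comparisons, each adjusted over 19342 genes and called at 0.05. The SE is the fold change over the square root of F. The script was tested on simulated data. Alternatives were RLE size factors, library totals, no filter or 1 CPM, DESeq2 1.42.0, the compared groups alone, limma 3.58.1 on log2(FPKM + 1) or log2(FPKM + 0.1), a replicate block, and leaving out each library.

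Members and lists were chosen with earlier results of these data known. Every member may be named. Values in every library are given for 22 preset members and for the 3 highest and 3 lowest called per comparison, and related genes come from the 3 smallest adjusted p in each direction. Every called line difference is given, and the 5 with the smallest adjusted p in each contrast are repeated among the flagged results. The labels call the replicates biological without saying what separated them, so p-values measure the spread between these 12 libraries. No 2 replicate libraries were the same library: their counts differed by more than sampling noise (chi-square per degree of freedom 2.11 to 3.59). The precision of a level is set by its counts and by 2 libraries per group.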

Additional observations from a re-analysis of the deposited data

Results flagged for a closer look

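The response to 3D culture differed between Huh7 and HLF by a test of the difference itself (Huh7 log2 fold change minus that of HLF, edgeR's quasi-likelihood test). For Inject-Embed against 2D, 11 members had a lower value in Huh7 and 1 a higher one. The smallest adjusted p-values belonged to the lectin chaperone CALR (-0.45), the ERAD factors EDEM1 (-0.80) and SEL1L (-0.56), and the chaperones HSPA13 (-0.63) and HSP90B1 (-0.32). For Mix-Embed against 2D, 12 members were lower and 0 higher, led by SEL1L (-0.65), HYOU1 (-0.44), EDEM1 (-0.59), CALR (-0.30) and HSPA13 (-0.48). For that 0, edgeR's unadjusted p was under 0.05 for 0 members, and DESeq2 called 0. For Inject-Embed against Mix-Embed, 5 members were higher and 2 lower in Huh7, led by HYOU1 (0.44), SDF2L1 (0.51), XBP1 (-0.30), DNAJB11 (0.36) and DNAJC3 (0.34). Over all tested genes, 13.1% were called lower and 11.7% higher in the first contrast, and 10.2% each way in the second. In the third, 5.95% were called lower and 4.62% higher. The first and second of these contrasts share the 2D libraries.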

How the results depend on the processing

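Each fold change and count was recomputed under 9 other settings and without each of the 12 libraries. Of 6804 recomputed member values, 6432 stayed on the same side of the threshold, 243 lost the call, 126 gained one and 3 reversed. A change of sign was counted as a reversal only where the value was called in either fit. Uncalled values among the 6432 may therefore have changed sign. The reversals were CANX in Huh7 against HLF in 2D: -0.13 with library totals alone, with limma on log2(FPKM + 1) and with limma on log2(FPKM + 0.1) (adjusted p = 0.00274, 0.012 and 0.0112), against 0.03. In that comparison library totals put the median of all genes at -0.18 and limma on log2(FPKM + 0.1) at -0.167, beside -0.02.

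Calls that held in all 21 alternatives numbered 11 of 20 (Huh7 Inject-Embed against 2D), 12 of 18 (Huh7 Mix-Embed against 2D), 4 of 11 and 5 of 9 (the same in HLF) and 23 of 28 (Huh7 against HLF). They numbered 5 of 11 and 1 of 4 for Inject-Embed against Mix-Embed in Huh7 and HLF, and 9 of 12, 8 of 12 and 2 of 7 for the line differences in Inject-Embed against 2D, Mix-Embed against 2D and Inject-Embed against Mix-Embed. Both limma fits gave 1 member higher (from 2) in Huh7 Inject-Embed. In Huh7 Inject-Embed against Mix-Embed, library totals, DESeq2 and both limma fits gave 2 lower (from 5). In HLF Inject-Embed the 2 higher became 4 with library totals or the compared groups alone and 1 with no filter, DESeq2 or either limma fit, and the 9 lower became 5 with either limma fit. In HLF Mix-Embed the 3 higher became 7 with library totals or either limma fit and 1 with DESeq2. In HLF Inject-Embed against Mix-Embed both limma fits gave 1 lower (from 4). For the line difference in Inject-Embed against 2D, RLE size factors and DESeq2 gave 2 higher (from 1). For that in Inject-Embed against Mix-Embed, library totals gave 9 higher (from 5), and RLE size factors, library totals, DESeq2, the compared groups alone and both limma fits gave 1 lower (from 2). The cause was not tested.

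Leaving out 1 library at a time gave, for members higher and lower, 0 to 3 and 14 to 19 (Huh7 Inject-Embed against 2D), 0 to 1 and 13 to 18 (Huh7 Mix-Embed against 2D), 4 to 9 and 2 to 5 (Huh7 Inject-Embed against Mix-Embed), 0 to 2 and 6 to 9 (HLF Inject-Embed against 2D), 1 to 3 and 4 to 7 (HLF Mix-Embed against 2D), 0 to 0 and 1 to 5 (HLF Inject-Embed against Mix-Embed), 20 to 22 and 5 to 7 (Huh7 against HLF in 2D), and for the line differences 1 to 2 and 8 to 11 (Inject-Embed against 2D), 0 to 0 and 10 to 13 (Mix-Embed against 2D) and 3 to 6 and 0 to 4 (Inject-Embed against Mix-Embed). A group left with 1 library was assumed to vary like the others. The higher count in HLF Inject-Embed was 0 without HLF 2D replicate 2 or HLF Inject-Embed replicate 1 and 1 without HLF 2D replicate 1 or HLF Inject-Embed replicate 2, and that in HLF Mix-Embed 1 without HLF 2D replicate 2 or HLF Mix-Embed replicate 2. The lower count of the line difference in Inject-Embed against Mix-Embed was 4 without either Huh7 2D library and 0 without either HLF Inject-Embed library, and its higher count 3 without Huh7 Inject-Embed replicate 1 or Huh7 Mix-Embed replicate 2.

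The replicate numbers did not pair the samples: over 15 pairs of groups, deviations of same-numbered libraries correlated at -0.037 to 0.036. With the replicate block the lower count in Huh7 Inject-Embed against Mix-Embed went from 5 to 4 and the higher count in HLF Mix-Embed from 3 to 2, and all other counts were equal. Depth limits DERL3, with 108 counts in all 6 Huh7 libraries and 0 in HLF.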
